A study of Saccharomyces cerevisiae with 12 samples.

Results

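The response of wild type Saccharomyces cerevisiae (budding yeast) to a shift into low glucose was measured on 2 of the 12 dual-channel arrays of the series, the pair on which RNA from 0.05% glucose was set against RNA from 2% glucose after 15 min. These arrays were taken as the members by their titles, and the genes described are the 5225 with a value on both, out of 5857 with a value on any array of the series. Strain DBY746, genotype wild type, was grown in 50 ml of YPD rich medium at 28 °C, spun down, washed with water and put into fresh YP medium with 0.05% or with 2% glucose, so the spin and the wash are common to both sides of every ratio. The low glucose RNA carried the dye Cy5 on array 1 and Cy3 on array 2.

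For comparison, the DBY746 cells labelled snf1 mutant, SNF1 being the gene of the Snf1 protein kinase, were handled in the same way and moved to 0.05% or 2% glucose on 2 arrays. Wild type DBY4741, which was not spun down or washed before treatment, received 16 mM KOH (pH 8.0) or 16 mM KCl (about pH 5.5) for 10 min on 4 arrays. The same alkaline treatment of an snf1::KanMX strain, on 4 further arrays, entered the fit only for its spread and for the estimate of each gene's dye effect. SNF1 itself gave no value on the low glucose arrays, and a ratio between cultures of the same genotype would not check the deletion.

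Yeast prefers glucose and, while it is plentiful, ferments it and keeps the genes for other carbon sources repressed. When glucose runs low, the Snf1 kinase inactivates repressors such as Mig1 and frees activators of respiration, gluconeogenesis and the use of other sugars, while protein kinase A activity falls, which lets the stress factors Msn2 and Msn4 act. Ribosome production, a large cost of fast growth, is known to fall in the same situation.

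All values are log2 ratios of 0.05% over 2% glucose unless another treatment is named, and a value of 1 is a 2-fold higher ratio. The direction is likely, taken from the order in which the titles and the design text name the conditions, and no label gives it outright. Means are given ± SD over the 2 arrays, and an adjusted p comes from limma with the Benjamini-Hochberg method over every gene tested, where a gene under 0.05 is named as called. Nothing in the labels says whether the 2 arrays came from separate cultures, so the spread between them may be only technical. The p-values do not rest on that spread alone. Each gene's spread was pooled within groups over all arrays of the series, most of them alkaline arrays with other handling. The hexose transporter gene HXT2, for example, had an SD of 0.028 here and of 1.37 over the wild type alkaline arrays. Its standard error in the fit was 0.52. Every ratio is relative to its own array, so less of 1 mRNA and more of all the others cannot be told apart, nor can a change in every cell and a change in some of them.

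Between the 2 arrays, values of the 5225 genes correlated with a Pearson coefficient of 0.953 and a Spearman coefficient of 0.937, a description across genes, which are not replicates. The sign was shared for 4634 genes, opposite for 583, and 8 had a value of 0 on an array. The median absolute difference between the arrays was 0.205. The log ratios spread more widely than elsewhere in the series, with an SD of 1.13 and 1.17 on these arrays and between 0.63 and 0.83 on the other 10. The plot of array 1 against array 2 shows genes of stress, storage and respiration at the upper end and ribosome assembly genes at the lower end of the diagonal.

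**Figure D1:**
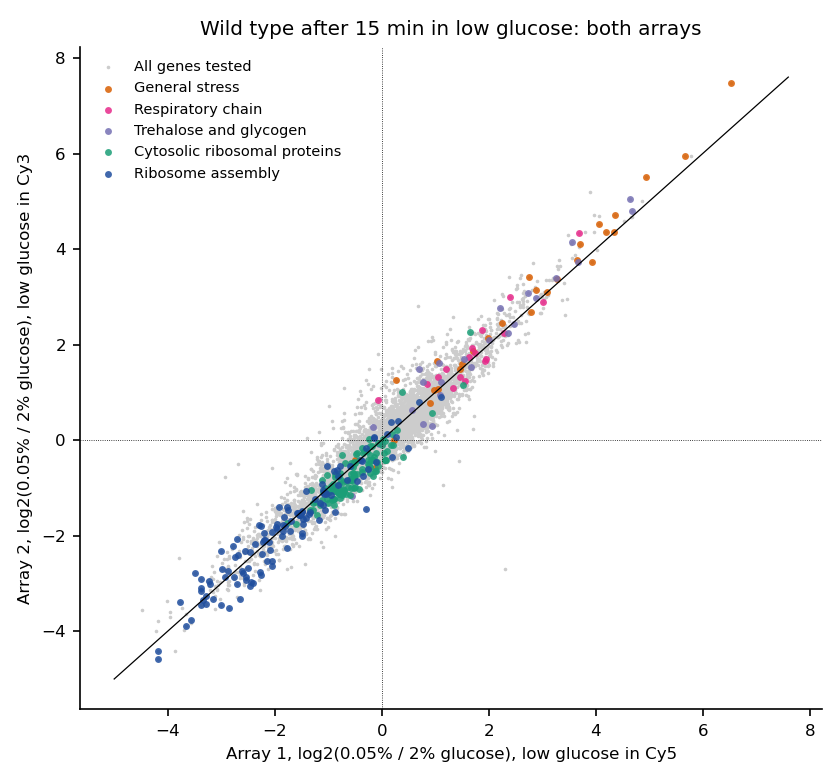
Each point is a gene, placed by its log2 ratio of 0.05% over 2% glucose on array 1 (low glucose RNA in Cy5, x axis) and on array 2 (low glucose RNA in Cy3, y axis) in wild type cells, with gene lists in colour and the diagonal drawn. Points follow the diagonal up to RGI1 at 6.53 and 7.47 and down to RRP12 at -4.18 and -4.57.

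With the values as deposited, most of the genes tested were called. Of 5225 genes, 3405 were called (65.2%), 1759 of them higher (33.7%) and 1646 lower (31.5%). With a minimum change of 2-fold, 795 were called higher (15.2%) and 872 lower (16.7%). With the arrays scaled to a common spread, 2154 were called (41.2%), 1045 higher and 1109 lower. These percentages are the background against which the counts of every gene list have to be read.

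Gene length went with the ratio in this group. Across the 4856 tested genes with a known length, nearly all of it coding length, the Spearman coefficient between the mean ratio and length was -0.438, and it was -0.448 on array 1 and -0.409 on array 2. On the other 10 arrays it lay between -0.17 and 0.11. When genes were sorted into 10 classes by length, the shortest class, 78 to 498 bases, had a median of 0.55, with 55.2% called higher and 11.7% called lower. The longest class, 2709 to 14730 bases, had a median of -1.25, with 6.38% called higher and 79.2% called lower. The cause of this trend was not tested.

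**Figure D2:**
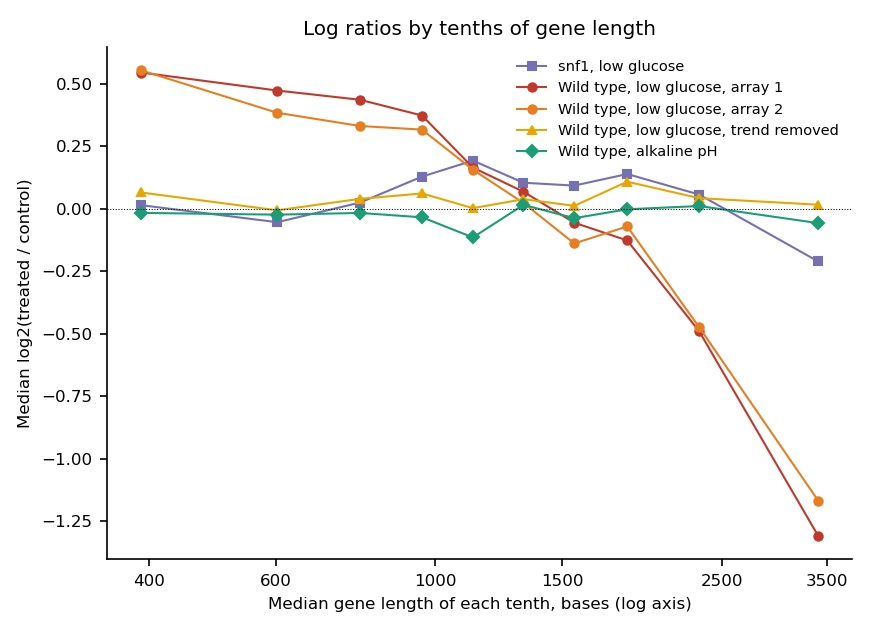
The x axis (log scale) is the median length in bases of genes sorted into 10 classes by length, and the y axis is the median log2 ratio of treated over control in each class, for the snf1 mutant at low glucose (mean of 2 arrays), each wild type low glucose array, the wild type low glucose mean after the length trend was removed, and the wild type at alkaline pH (mean over its arrays). Medians of the wild type low glucose arrays were lowest in the longest class, at -1.31 and -1.17, where the median was -0.21 in the snf1 mutant and -0.06 on the alkaline arrays.

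Each function was therefore also read after a smooth curve of the log ratio on log2 length had been subtracted from every array. With that trend removed, 2945 of 4856 genes were called (60.6%), 1489 higher (30.7%) and 1456 lower (30.0%). Among the 3200 called genes with a length, 2395 kept their call and direction, 755 lost the call and 50 were called in the opposite direction, while 500 others were called for the first time. Values of this second kind are named as length-corrected below.

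Some long genes rose all the same, and some short ones fell. TSL1, 3297 bases long and a subunit of trehalose synthase, had 3.25 and 3.39 on the arrays (10.0-fold higher, adjusted p = 2.52e-06). Other rises in the longest class were those of HOS4 with a mean of 2.96, YAT2 with 2.89 and NUP170, a gene of the nuclear pore, with 2.65. ATG8, at 354 bases the gene of a ubiquitin-like protein of autophagy, fell to -2.68 and -2.39 (5.79-fold lower, adjusted p = 1.79e-06). RRN10, of the RNA polymerase I initiation machinery, and NHP2, of the particles that modify ribosomal RNA, also fell in the shortest class, with means of -2.19 and -2.03. HOS4 and NHP2 are named here because of their size and were chosen after their values were seen.

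The 20 largest rises included genes of respiratory growth and of carbon stores. RGI1, a gene of respiratory growth under energy limitation, led with 6.53 and 7.47, or 128-fold higher at 0.05% glucose (mean 7.003 ± 0.67, adjusted p = 1.52e-06). BDH2, an alcohol dehydrogenase related to butanediol dehydrogenase, had 5.78 and 5.95 (58.3-fold, adjusted p = 2.08e-08). AIM17, a gene named for the inheritance of mitochondria, had 5.66 and 5.95 (55.9-fold). Then came ISF1 at 4.94 and 5.52, the peroxisomal citrate synthase gene CIT2 at 4.87 and 4.997 and the glycogen synthase gene GSY1 at 4.65 and 5.05. Each of the 6 lay far above the spread of its 2 values, which was widest for RGI1.

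The remaining 14 of the 20 largest rises had means between 3.91 and 4.73. They include PGM2 (phosphoglucomutase), HXK1 (hexokinase 1), JEN1 (lactate and pyruvate carrier), MPC3 (mitochondrial pyruvate carrier of respiring cells), NCE103 (carbonic anhydrase), ATO2 (acetate transport), HSP12, TFS1 (inhibitor of carboxypeptidase Y), MSC1, RGI2, PUT1 (proline oxidase), CYC7 (cytochrome c isoform 2), SUC2 (invertase) and TMA10. All 20 kept their call with the length correction, with values between 3.44 and 6.52. Their median length was 1136 bases, against 1263 for all tested genes with a standard name.

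The 20 largest falls had a median length of 3124 bases. RRP12, needed to export and mature both ribosomal subunits, had -4.18 and -4.57, 20.8-fold lower at 0.05% glucose (mean -4.38 ± 0.28, adjusted p = 1.37e-07). SPB1, a methyltransferase of the large subunit precursor, had -4.18 and -4.41 (19.7-fold lower). SRO9, an RNA-binding protein gene of translation, had -3.86 and -4.41, and FAS1, a fatty acid synthase subunit, -4.21 and -3.99. The others, with means from -4.01 to -3.32, were PDR3, URA2, RNR1, NEW1, FKS1, NSR1, KRE33, GCN1, UTP18, KAP123, ACC1, UTP22, MAK21, NOG1, UTP4 and BSC1. All 20 kept their call with the length correction, but the size of the long ones shrank: GCN1, 8019 bases long, moved to -1.45, while NSR1 stayed at -3.86.

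**Figure D3:**
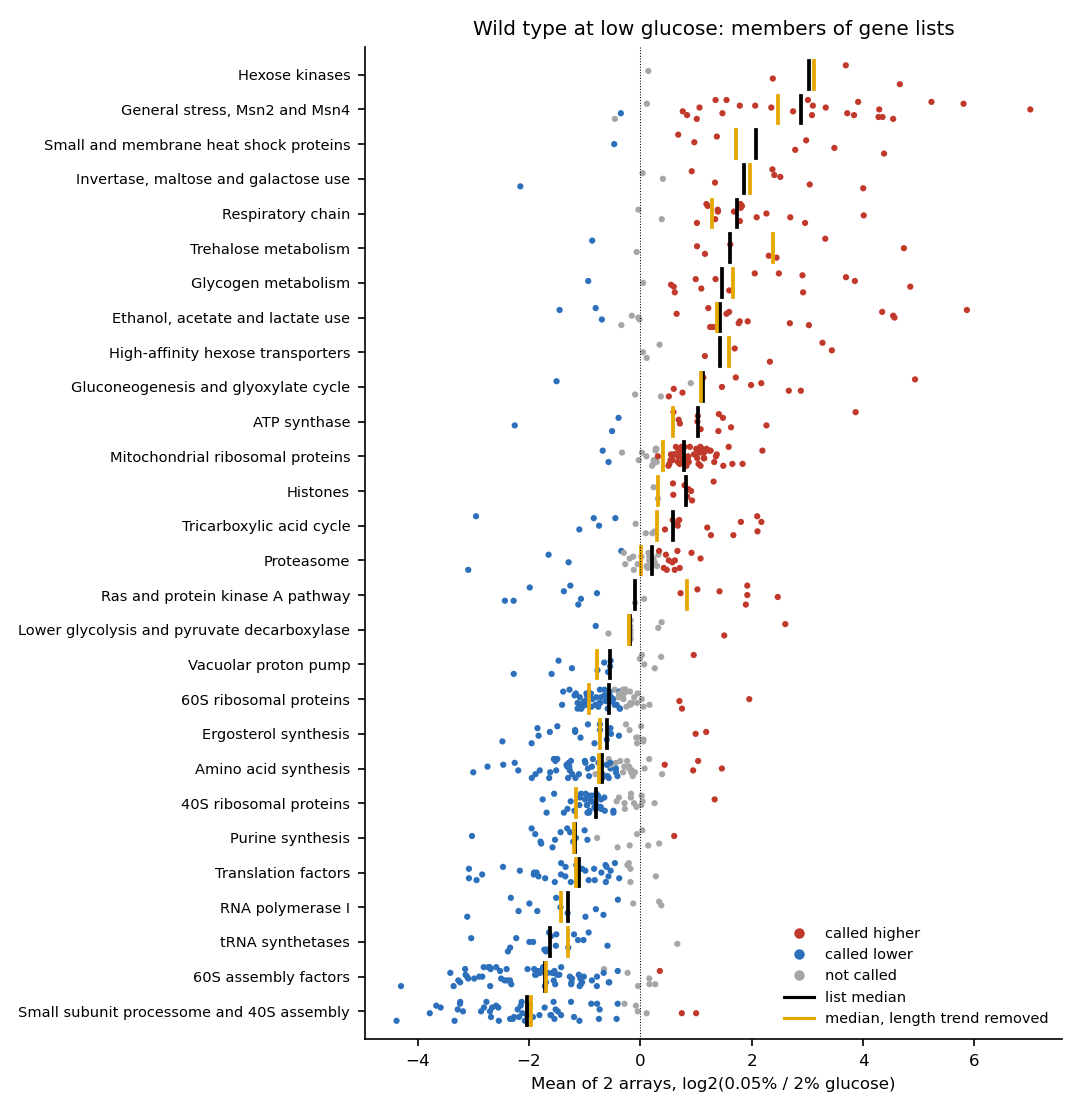
Each row is a gene list and each point a member, placed by its mean log2 ratio of 0.05% over 2% glucose over the 2 wild type arrays (x axis) and coloured by its call, with a black bar at the list's median and a yellow bar at its median after the length trend was removed. Hexose kinases have a median of 3.03, small subunit processome genes -2.04, and the yellow bar of the Ras and protein kinase A list stands at 0.84 while its black bar is at -0.09.

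Several high-affinity hexose transporters rose, and the low-affinity HXT1 fell. HXT7, a high-affinity glucose transporter, had 3.29 and 3.59 (10.8-fold higher, adjusted p = 7.61e-08), and its near-identical neighbour HXT6 had 3.19 and 3.35 (9.65-fold). These transporters may share signal on the arrays, and probe sequences were not examined. HXT2 rose to 2.31 and 2.35 (5.02-fold, adjusted p = 0.00213), a call that was lost when all arrays were scaled to a common spread. HXT4, of intermediate affinity, rose to 1.29 and 2.10 (3.24-fold).

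HXT1, the low-affinity transporter used at high glucose, went the other way with -2.05 and -1.35 (3.25-fold lower, adjusted p = 8.46e-06). HXT3, of low affinity too, had 0.15 and 0.40 and was not called (adjusted p = 0.123), although its length-corrected mean of 0.43 was. HXT5, a transporter of slow growth, had 0.85 and 1.47, and its call rested on array 2: without it the value was 0.90 (adjusted p = 0.159). The high-affinity list also holds HXT13, HXT15 and HXT17, and the low-affinity list HXT9 and HXT11, genes whose affinity was not examined. Of 8 tested genes of the first list 5 were called higher, with a median of 1.43. Of 4 in the second 1 was called in each direction.

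The sensors and the repressors of the HXT genes were mixed. SNF3, the sensor of low glucose, rose to 1.27 and 1.33 (2.46-fold), and GPA2, the G protein subunit that couples glucose to protein kinase A, to 2.29 and 2.67 (5.58-fold). STD1 and MTH1, co-repressors of the HXT genes, fell to -1.59 and -0.71 and -0.89 and -0.88. The casein kinase genes YCK1 and YCK2 fell to means of -0.91 and -0.72. In all 3 of 8 members were called higher and 4 lower, and the list's median of -0.55 turned to 0.10 with the length correction. STD1's call was lost without array 1, where its value was -0.68 (adjusted p = 0.114).

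Among the kinases that phosphorylate glucose, HXK1 had 4.66 and 4.67 (25.3-fold higher, adjusted p = 8.81e-09). EMI2, the second glucokinase-like gene, had 3.56 and 3.82 (12.9-fold), and GLK1, glucokinase, 2.71 and 2.05 (5.2-fold). HXK2, the hexokinase of cells on high glucose, had 0.37 and -0.09 and was not called (adjusted p = 0.584). So 3 of 4 members rose, with a list median of 3.03.

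Components of the Snf1 pathway were called in both directions. SIP2, a beta subunit of the kinase, rose to 1.60 and 1.93 (3.39-fold, adjusted p = 3.47e-05). SNF4, the gamma subunit, had 0.64 and 0.81, and without array 2 it was no longer called (0.55, adjusted p = 0.0756). SAK1, the main kinase that activates Snf1, had -1.19 and -1.35 and was called lower, but its length-corrected mean was -0.13 and not called. Of 10 members 5 were called higher and 3 lower, or 4 and 1 with the length correction.

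Of the repressors, MIG1, the main repressor of glucose-repressed genes, rose to 1.19 and 1.35 (2.41-fold, adjusted p = 8.68e-06). NRG1, a repressor related to it in function, rose to 1.99 and 1.85 (3.78-fold), and XBP1, a repressor made under stress, to 2.40 and 2.38 (5.25-fold). MIG2 had 0.54 and 0.21, and leaving out either array ended its call, with 0.30 without array 1 (adjusted p = 0.216) and 0.45 without array 2 (adjusted p = 0.0799). MIG3 had 0.59 and 0.22 and was not called. TUP1, the co-repressor that Mig1 recruits, fell to -1.73 and -1.49 (3.05-fold lower), while its partner CYC8 had -1.25 and -0.96 and lost its call with the length correction (-0.21).

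The activators include HAP4, the limiting subunit of the activator of respiratory genes, which rose to 2.17 and 2.64 (5.29-fold, adjusted p = 1.17e-04). Its partner HAP2 rose to 1.99 and 1.56, HAP5 to 1.12 and 1.22, and USV1, a zinc finger gene of non-fermentable growth, to 1.99 and 2.14. HAP1, the haem-responsive activator, had -1.36 and -1.20, but its length-corrected mean was 0.24. For ADR1 and CAT8, the activators of ethanol use and gluconeogenesis, the arrays disagreed. ADR1 had 0.20 and 1.42 and was called, yet without array 2 its value was 0.44 (adjusted p = 0.235). CAT8 had -0.72 and 0.27 and was not called (adjusted p = 0.337), while its length-corrected mean of 1.23 was. Both are long genes, and 6 of 13 members were called higher and 5 lower, or 7 and 2 with the length correction.

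The Ras and protein kinase A list shows how far length can set a list's picture. The catalytic subunit gene TPK2 rose to 1.87 and 1.92 (3.72-fold), whereas TPK3 fell to -1.11 and -1.64 (2.59-fold lower). PDE1, a phosphodiesterase of cyclic AMP, rose to 2.03 and 1.81, and YAK1, a kinase that opposes growth, to 1.92 and 1.93. SCH9, a kinase of nutrient signalling, fell to -2.15 and -2.40. IRA1 and IRA2, the long genes of the Ras GTPase activators, had means of -2.43 and -1.99, but -0.02 and 0.42 with the length correction. The median of all 17 members was -0.09 and became 0.84, with 7 higher and 8 lower before and 9 and 3 after.

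Genes for other sugars rose. SUC2, which encodes the enzyme that splits sucrose, had 4.03 and 3.98 (16-fold higher, adjusted p = 3.15e-08). MAL33, a regulator of maltose use, had 2.87 and 3.21 (8.24-fold), and the maltase genes MAL32 and MAL12 had 2.09 and 2.94 and 2.15 and 2.67. The maltases are near-identical and may share signal. GAL7, of galactose breakdown, fell to -2.15 and -2.16 (4.45-fold lower). The list's calls were 7 higher and 1 lower of 10, around a median of 1.86.

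Gluconeogenesis and the glyoxylate cycle, which build sugar from compounds with few carbons, split into strong and weak responders. CIT2, named above, and MLS1, malate synthase, rose most, MLS1 to 2.65 and 3.11 (7.37-fold, adjusted p = 1.23e-06). GID8, a subunit of the ligase that destroys gluconeogenic enzymes when glucose returns, rose to 2.43 and 2.90 (6.35-fold), and FBP26, fructose-2,6-bisphosphatase, to 1.8 and 2.54 (4.51-fold). PCK1, the entry enzyme of gluconeogenesis, had 0.83 and 0.99 and was not called (adjusted p = 0.12). FBP1, its last regulated enzyme, had 0.68 and 0.35, and was called only with both arrays: without array 1 it was 0.40 (adjusted p = 0.33) and without array 2 0.63 (adjusted p = 0.14). Of 15 tested members 11 were called higher and 1 lower.

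In the use of ethanol, acetate and lactate 15 of 22 genes were called higher and 3 lower, around a median of 1.43. JEN1 had 4.53 and 4.59 (23.6-fold higher, adjusted p = 2.14e-07), MPC3 4.36 and 4.72 (23.3-fold) and ATO2 3.97 and 4.71 (20.3-fold). ACS1, the acetyl-CoA synthetase of respiring cells, rose to 2.58 and 2.79 (6.43-fold). ADH2, the alcohol dehydrogenase of ethanol use, gave no value on these arrays. Fatty acid oxidation and the carnitine shuttle had 7 of 13 genes called higher and 2 lower, led by the carnitine acetyltransferase YAT2 at 2.52 and 3.25. Of 25 peroxisome formation genes 10 were called higher and 4 lower, led by PEX29 at 1.39 and 1.75, with a median of 0.34.

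Glycolysis gave few calls. PFK1 and PFK2, the subunits of phosphofructokinase, fell to -2.0 and -2.05 and -1.56 and -1.89 (4.07-fold and 3.31-fold lower), and PGI1, phosphoglucose isomerase, to -0.84 and -0.96. PYK2, the minor pyruvate kinase, rose to 2.50 and 2.71 (6.07-fold, adjusted p = 4.13e-07), and GPM2 to 1.28 and 1.74. Over 24 tested glycolysis genes 4 were called in each direction.

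Many glycolytic genes were listed with the same pair of values. Exactly 0.068 on array 1 and -0.425 on array 2 were listed for 13 genes, 9 of them glycolytic: FBA1, TDH1, TDH2, TDH3, PGK1, ENO1, ENO2, CDC19 and PDC1. The others were SSA1, BUD14, RPL15A and CCW12. The next most common pair, 0.068 and -0.423, which differs from the first by 0.002, was shared by 7 genes, namely ADH1, TEF1, TEF2 and 4 open reading frames without a standard name. As ratios the shared values are 1.05 and 0.745, which gives a mean of -0.18 on the log2 scale, and the values of these genes are not independent of each other. The cause of the shared values was not tested.

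Genes of the pentose phosphate pathway moved both ways. SOL4, a phosphogluconolactonase, had 2.75 and 3.42 (8.47-fold higher, adjusted p = 2.56e-07) and NQM1, a transaldolase, 2.38 and 2.75 (5.91-fold). TKL1, the main transketolase, fell to -1.93 and -1.74 (3.57-fold lower), and RKI1, ribose phosphate isomerase, to -0.92 and -1.17. Both directions had 4 of 11 genes.

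Such divergence between isozymes was compared for 26 pairs of enzymes or paired proteins, chosen with these data known. Pairs whose members were called in opposite directions include ACS1 and ACS2 with means of 2.69 and -1.45, PGM2 and PGM1 with 4.73 and -0.86, GND2 and GND1 with 1.26 and -1.12, and ALD4 and ALD5 with 1.93 and -0.80. ALD5's call was lost with the length correction and without either array (-0.82, adjusted p = 0.201, and -0.79, adjusted p = 0.222). Elsewhere a single member was called, as in TSL1 with 3.32 and TPS3, its paralogue, with -0.07, or in RNR1 with -3.83 and RNR3 with 0.34, but with the length correction TPS3 and RNR3 were called higher too. Pairs in which both rose by unequal amounts include COX5B and COX5A with 2.69 and 1.39, GSY1 and GSY2 with 4.85 and 2.49, and CIT2 and CIT1 with 4.93 and 1.67. The difference within a pair was not tested, since each gene has its own probe.

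The tricarboxylic acid cycle rose in part. SDH2 and SDH4, subunits of succinate dehydrogenase, had 1.94 and 2.41 and 2.06 and 2.14 (4.51-fold and 4.29-fold higher). MDH1, mitochondrial malate dehydrogenase, had 2.26 and 1.95 (4.3-fold), and CIT1, mitochondrial citrate synthase, 1.60 and 1.74 (3.18-fold). KGD1, a subunit of ketoglutarate dehydrogenase, was called lower with -0.96 and -0.71, but its length-corrected mean was 0.14, and without array 1 the call was lost (-0.63, adjusted p = 0.112). The list's calls were 12 higher and 5 lower of 21, or 10 and 3 with the length correction.

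The respiratory chain rose almost as a whole, with 16 of 18 tested genes called higher and 2 not called. CYC7 had 3.68 and 4.34 (16.1-fold higher, adjusted p = 2.47e-07), NDI1, the internal NADH dehydrogenase, 3.02 and 2.89 (7.77-fold), COX5B, a cytochrome oxidase subunit, 2.39 and 2.996 (6.47-fold) and QCR8, of complex III, 2.28 and 2.25 (4.8-fold). The list's median was 1.74, and since its genes are short, with a median of 446 bases, the length correction took it to 1.28 and left 16 called higher. In the ATP synthase list 12 of 15 were called higher and 3 lower. STF2 and INH1, regulators of the enzyme, led with 3.69 and 4.04 and 1.99 and 2.54. ATP3, the gamma subunit of its catalytic core, fell to -2.22 and -2.29 (4.77-fold lower, adjusted p = 1.22e-06), while the lower calls of ATP1 and ATP2, the alpha and beta subunits, were lost with the length correction, which left 9 called higher and 1 lower.

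Storage carbohydrate genes rose, and the length correction raised them further. For trehalose, TPS1, the synthase, had 2.46 and 2.43 (5.45-fold higher, adjusted p = 4.05e-07), TSL1 3.25 and 3.39 (10.0-fold) and PGM2 4.68 and 4.79 (26.6-fold). Here 7 of 9 genes were called higher and 1, PGM1, lower, with a median of 1.61 and a length-corrected one of 2.39. For glycogen, GSY1, the synthase, had 4.65 and 5.05 (28.8-fold), GLC3, the branching enzyme, 3.55 and 4.15 (14.4-fold), GIP2, a phosphatase subunit that binds glycogen synthase, 3.66 and 3.73 (12.9-fold) and GLG1, the primer protein, 2.88 and 2.97 (7.58-fold). In that list 14 of 16 rose and SGA1, the sporulation glucoamylase, fell to -0.91 and -0.96.

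Glycerol genes had 5 of 10 called higher and 2 lower. GCY1, of glycerol breakdown, had 3.19 and 3.38 (9.78-fold higher), GUT2 and GUT1, of glycerol use, 2.40 and 2.59 and 1.93 and 1.90, and GPP1, the main phosphatase of glycerol synthesis, fell to -0.57 and -0.64. GPP1's call was lost without array 1, with -0.55 (adjusted p = 0.0751).

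The general stress list holds genes known to be induced by stress and the factors Msn2 and Msn4 themselves. It also holds RGI1, MPC3 and USV1, described above by respiratory or non-fermentable growth, and RGI2, ISF1 and AIM17. It was chosen with earlier results of these data known, so its count is not one of stress genes alone. Of its 28 tested genes 25 rose and 1 fell. Their median was 2.88, or 2.47 length-corrected. Besides RGI1, AIM17 and ISF1, named above, TMA10 had 3.71 and 4.12 (15.1-fold higher, adjusted p = 4.38e-07). MSN2 itself was the gene called lower, with -0.12 and -0.58, and its length-corrected mean of 0.02 was not called. It also lost the call without array 1 (-0.48, adjusted p = 0.069) and without array 2 (-0.22, adjusted p = 0.379). Within the small and membrane heat shock proteins 7 of 8 rose. HSP12, which protects membranes, had 4.06 and 4.69 (20.8-fold higher, adjusted p = 3.43e-06). HSP30, a membrane protein that holds back the plasma membrane proton pump, had 3.33 and 3.64 (11.2-fold), HSP26 2.81 and 3.15 (7.88-fold) and HSP42 2.64 and 2.92 (6.88-fold), while the mitochondrial chaperonin gene HSP60 had -0.46 and -0.48. The call of HSP60 was lost with the length correction, which left 5 of the 8 called higher, and without either array.

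The larger chaperones did not follow as a group. HSP78, of mitochondria, rose to 2.38 and 3.42 (7.46-fold) and SSA4, an inducible Hsp70, to 2.61 and 2.80 (6.52-fold). SSB1, the Hsp70 that sits on ribosomes, fell to -0.91 and -1.04, and so did HSC82, the constitutive Hsp90, with -1.24 and -0.79, and SSE1 with -1.13 and -0.99. Calls were 9 higher and 6 lower of 24. Of the oxidative stress genes 15 of 24 were called higher and 2 lower, led by the peroxiredoxin TSA2 at 2.56 and 2.45 (5.67-fold) and the glutathione peroxidase GPX1 at 2.18 and 2.39 (4.86-fold). GRX1 and GRX2, glutaredoxins, had 1.76 and 2.04 and 2.03 and 1.94.

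Most ribosomal protein genes fell, over a range of means from -1.75 to 1.34 for the 40S and from -1.41 to 1.96 for the 60S subunit. Of 49 genes of the 40S subunit 36 were called lower and 1 higher, with a median of -0.80. Of 74 genes of the 60S subunit 49 were called lower and 3 higher, with a median of -0.56. They are short, and the length correction moved the medians to -1.15 and -0.92 and the calls to 46 and 69 lower. RPS0B and RPS0A, of the small subunit, fell most, to -1.77 and -1.74 (3.37-fold lower) and -1.60 and -1.76 (3.21-fold lower), and RPL16B, of the large one, to -1.35 and -1.46 (2.65-fold lower).

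Most ribosomal proteins have an A and a B gene, and 45 such pairs were tested on both genes. Both were called lower in 28 pairs, a single one in 8, neither in 6, and in 1 pair a single gene was called higher. Opposite calls came in 2 pairs. RPL23A rose to 1.65 and 2.26 (3.88-fold higher, adjusted p = 1.27e-04) while RPL23B fell to a mean of -0.88, and RPL19B rose to 0.93 and 0.56 while RPL19A fell. RPL19B lost its call without array 1, where it had 0.44 (adjusted p = 0.11). RPS29A, with 1.52 and 1.15, rose too, against -0.07 for RPS29B. The median absolute difference between B and A was 0.136, and 5 pairs lay more than 1 apart. Near-identical copies may share signal, so a small difference says little about either copy.

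Ribosome assembly genes fell, with lower medians than those of the ribosomal proteins. Of 55 genes of the small subunit processome and 40S assembly 49 were called lower and 2 higher, with a median of -2.04, and of 68 genes of 60S assembly 61 were lower and 1 higher, with a median of -1.70. The length correction hardly moved these, to -1.97 and -1.70. NSR1, nucleolin, had -3.66 and -3.90 (13.8-fold lower, adjusted p = 2.45e-08), UTP18 -3.57 and -3.76 (12.7-fold lower) and UTP22 -3.78 and -3.40 (12-fold lower). In 60S assembly MAK21 had -3.38 and -3.44 (10.6-fold lower), the GTPase NOG1 -3.28 and -3.43 (10.2-fold lower) and the helicase DBP2 -3.38 and -3.16 (9.64-fold lower). The exceptions were NOP1, fibrillarin, with 1.11 and 0.90, UTP20 with 0.70 and 0.79 and REH1 with 0.30 and 0.40, all called higher by at most 2-fold. Without array 2 these 3 calls were lost, with 0.95 (adjusted p = 0.0589), 0.67 (adjusted p = 0.0536) and 0.32 (adjusted p = 0.23). REH1 lost it without array 1 as well (0.38, adjusted p = 0.164), while UTP20, a very long gene, had a length-corrected mean of 2.90.

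The polymerases that make ribosomal and transfer RNA fell with them. RNA polymerase I had 12 of 15 genes called lower and 3 not called, among them RPA135, its second subunit, at -3.07 and -3.15 (8.62-fold lower, adjusted p = 1.03e-07) and RPA34 at -2.34 and -2.31 (5.01-fold lower). In RNA polymerase III 13 of 17 were lower and 2 higher. RPO31, its largest subunit, had -3.27 and -2.94, and MAF1, the repressor of that polymerase, rose to 0.98 and 0.90 (1.92-fold higher, adjusted p = 7.69e-04). RPO21, the largest subunit of RNA polymerase II, fell to -3.08 and -2.96, or -1.31 with the length correction.

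Transfer RNA synthetases fell in 19 of 20 cases, with a median of -1.62. CDC60, for leucine, had -3.18 and -2.89 (8.21-fold lower, adjusted p = 1.04e-07), ALA1, for alanine, -2.43 and -2.33 (5.2-fold lower) and MES1, for methionine, -2.27 and -2.18 (4.68-fold lower). Translation factors fell in 31 of 36 cases, with a median of -1.10. TIF4631, the scaffold of the cap-binding complex, had -3.22 and -2.93 (8.44-fold lower), DED1, the helicase of initiation, -3.11 and -3.05 (8.44-fold lower), and NIP1 and RPG1, subunits of initiation factor 3, -2.85 and -3.04 and -2.93 and -2.75. Enzymes that modify transfer and ribosomal RNA were lower in 25 of 34 cases, led by the pseudouridine synthases PUS1 at -2.64 and -2.88 and CBF5 at -2.44 and -2.16. Their medians were -1.29, -1.16 and -1.12 with the length correction.

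Mitochondrial ribosomal proteins moved opposite to the cytosolic ones. Of 65 genes 52 were called higher and 2 lower, with a median of 0.79. RSM10 had 2.13 and 2.25 (4.57-fold higher, adjusted p = 1.02e-06), RSM7 1.94 and 1.73 (3.57-fold) and MRPS5 1.75 and 1.56 (3.15-fold). These genes are short, and with the length correction 36 were called higher and 3 lower, with a median of 0.41. Solute carriers of mitochondria had 12 of 22 called higher and 2 lower, or 8 and 5 with the length correction, led by PIC2, a phosphate and copper carrier, at 2.53 and 2.90 and MRS4, an iron carrier, at 2.57 and 2.05. Import of proteins into mitochondria did not follow, with 4 of 27 called higher and 9 lower, among them SSC1, the Hsp70 of the matrix, at -1.21 and -1.04 and TOM40, the outer membrane channel, at -0.81 and -1.05.

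Proteolysis changed less. The proteasome list had 12 of 34 called higher and 4 lower, but 3 and 6 with the length correction, so its direction depends on that choice. BLM10, a long activator gene of the proteasome, fell to -3.07 and -3.11, or -1.12 length-corrected. Autophagy genes were higher in 16 of 29 cases and lower in 4. Receptors led: ATG39, for the nucleus, had 2.15 and 2.55 (5.1-fold higher), and ATG19 and ATG34, for vacuolar enzymes, 2.17 and 2.15 and 1.75 and 2.21. Vacuolar proteases and their inhibitors had 6 of 10 called higher, with TFS1 at 4.33 and 4.37 (20.4-fold) and PBI2 at 1.92 and 2.33 (4.37-fold), both inhibitors, and ATG42, a carboxypeptidase, at 2.04 and 1.97. The vacuolar proton pump fell, with 9 of 15 lower and 1 higher. VMA1, its catalytic subunit, had -2.33 and -2.22 (4.83-fold lower, adjusted p = 2.14e-07) and VPH1, a membrane subunit, -1.63 and -1.56. VMA22, an assembly factor, had 1.26 and 0.66 and lost its call without array 1 (0.56, adjusted p = 0.0659).

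Many genes of amino acid and purine synthesis fell. In amino acid synthesis 44 of 67 genes were called lower and 4 higher, with a median of -0.69. ILV5 and ILV3, of the branched-chain pathway, had -3.02 and -2.98 and -2.32 and -2.60 (8-fold and 5.5-fold lower), ARO1, of the aromatic pathway, -2.60 and -2.89 (6.7-fold lower), and LEU9, of leucine synthesis, -2.14 and -2.37. LEU2 and TRP1 rose, to 1.45 and 1.48 and 1.04 and 0.86. Purine synthesis had 14 of 22 lower and 1 higher, with ADE6 at -3.15 and -2.90 (8.13-fold lower) and IMD4, of guanine nucleotides, at -2.17 and -1.61. In pyrimidine synthesis URA2, which starts the pathway, had -4.18 and -3.80 (15.9-fold lower, adjusted p = 9.83e-08) and RNR1, the large subunit of ribonucleotide reductase, -3.97 and -3.70 (14.2-fold lower), while URA7, CTP synthase, rose to 1.60 and 1.29. Calls there were 7 lower and 4 higher of 17. Sulfate and methionine genes were lower in 8 of 26 cases and higher in 3, where 31.5% and 33.7% of all genes were.

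For lipids, FAS1 had -4.21 and -3.99 and ACC1, acetyl-CoA carboxylase, -3.74 and -3.51 (12.3-fold lower, adjusted p = 2.45e-08). Both are long, and their length-corrected means were -2.18 and -1.60, still called. ELO3, which lengthens fatty acids, had -2.29 and -2.40 (5.08-fold lower), and the list had 13 of 25 lower and 5 higher. GPT2 and SCT1, the acyltransferases that begin glycerolipid synthesis, rose to 1.27 and 1.36 and 0.85 and 1.23, SCT1 with a call lost without array 2 (0.67, adjusted p = 0.182). In ergosterol synthesis 17 of 27 were lower and 2 higher, led by HMG1, a reductase that sets the rate of the pathway, at -2.38 and -2.57 (5.57-fold lower), ERG1 at -1.98 and -1.92 and ERG11 at -1.81 and -1.85.

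Nitrogen genes were called in both directions. PUT1, of proline breakdown, had 3.97 and 4.35 (17.9-fold higher, adjusted p = 9.44e-07), UGA1, of aminobutyrate breakdown, 1.85 and 1.77, and the permeases DIP5 and BAP2 2.12 and 2.17 and 1.87 and 1.56. Other amino acid permeases fell, HIP1 to -1.45 and -1.60, CAN1 to -1.50 and -1.53 and LYP1 to -1.15 and -1.14. The list had 11 of 25 higher and 6 lower.

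Genes of the secretory pathway and the cell surface were called in both directions, more of them lower. In translocation, folding and glycosylation 18 of 41 genes were lower and 6 higher, with ALG3 at -2.10 and -2.22 (4.47-fold lower) and STT3, of oligosaccharyl transferase, at -1.52 and -1.66. Cell wall genes were lower in 18 of 37 cases and higher in 7. FKS1, the glucan synthase of growing cells, had -3.97 and -3.61 (13.8-fold lower), or -1.98 length-corrected, UTR2, a crosslinker of chitin and glucan, -2.52 and -2.53 and EXG1, an exoglucanase, -2.01 and -1.97. PMA1, the proton pump of the plasma membrane, had -3.21 and -3.13 (9.01-fold lower, adjusted p = 1.79e-06) and TRK1, the potassium transporter, -1.81 and -1.56, or -0.43 length-corrected. Their list of proton pump and potassium transport genes had 3 of 8 called in each direction, and its median of -0.26 turned to 0.49 with the length correction, with 4 higher and 3 lower. Its higher calls, PTK2, HAL5 and TOK1, were all lost without array 2, with 0.36 (adjusted p = 0.152), 0.60 (adjusted p = 0.168) and 0.31 (adjusted p = 0.263), and those of HAL5 and TOK1 also without array 1, with 0.48 (adjusted p = 0.267) and 0.47 (adjusted p = 0.0952). The chaperonin CCT and prefoldin, which fold actin and tubulin, were lower in 8 of 13 cases and higher in 2, with CCT7 at -1.98 and -1.53. ACT1, actin, fell to -0.87 and -0.72 and TUB2, tubulin, to -1.10 and -0.82.

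Of the cell cycle genes 11 of 22 were lower and 2 higher, among them CLB2, a mitotic cyclin, at -1.801 and -1.71 (3.37-fold lower) and FAR1, an inhibitor of the G1 kinase, at -2.28 and -2.42 (5.09-fold lower). Histone genes, which are short, were higher in 8 of 10 cases and, with the length correction, in 5, with HTB2 at 1.35 and 1.28 (2.49-fold higher). Mating genes were mixed at 8 higher and 7 lower of 26, with FUS3, the mating kinase, at 2.27 and 2.39 and AGA1, an agglutinin subunit, at -2.53 and -2.68. In mRNA decay XRN1, the main exonuclease, had -2.88 and -2.65 and MTR4, a helicase of the exosome, -3.06 and -3.02, both lower, while EDC2, an enhancer of decapping, rose to 2.67 and 3.01 (7.17-fold). The list's calls were 13 lower and 4 higher of 31.

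Ions gave a mixed picture. Iron and copper genes were higher in 15 of 32 cases and lower in 1, with HMX1, haem oxygenase, at 2.40 and 2.76 (5.97-fold higher), ISU1, the scaffold of iron-sulfur clusters, at 2.23 and 2.47 and CTR1, the copper transporter, at 2.20 and 2.45. Calcium and calcineurin genes had 7 of 15 higher and 6 lower, or 6 and 2 with the length correction. RCN2, a regulator of calcineurin, had 3.11 and 3.04 (8.42-fold higher) and the kinase CMK1 2.19 and 2.17, whereas PMR1, the Golgi calcium pump, fell to -1.69 and -1.69. Phosphate genes were higher in 6 of 18 cases and lower in 7, with the permease gene PHO91 at -1.73 and -1.97 and SPL2 at 1.49 and 1.82.

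Across the 62 lists, 32 had a median above 0 and 34 with the length correction. Medians of 6 lists changed sign: glucose sensing, Ras and protein kinase A, the pentose phosphate pathway, mitochondrial import, the proton pump with potassium transport, and mating. The lists for carbon uptake and use other than glycolysis ran from hexose transport to ethanol, acetate, lactate and fatty acid use. Together they held 72 tested genes, with 48 higher and 7 lower calls, or 51 and 5 with the length correction. The ribosome assembly lists held 123, of which 110 were called lower and 3 higher, or 108 and 4.

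The difference itself, snf1 minus wild type, was tested over the 3651 genes with values on all 4 low glucose arrays. The snf1 arrays gave 4155 and 4056 values, against 5463 and 5370 on the wild type ones. Many genes of the wild type response, such as ISF1 with no snf1 value, could therefore not be compared, and the counts below leave them out. Genes called numbered 1481 (40.6%), of which 1007 were higher (27.6%) and 474 lower (13.0%) in snf1. The wild type log ratios spread more widely, and with all arrays scaled to a common spread 506 were called (13.9%), 409 higher (11.2%) and 97 lower (2.66%). With the length correction 1163 of 3472 were called (33.5%), 21.0% of the genes higher and 12.5% lower. Without either wild type array the count was 1006 or 962.

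**Figure D4:**
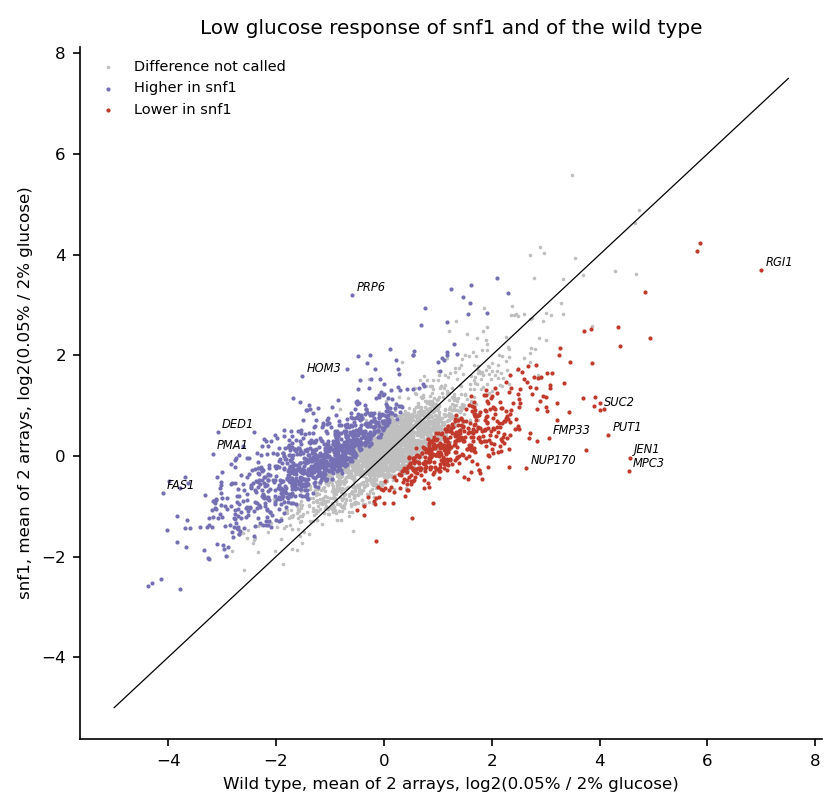
Each point is a gene with values on all 4 low glucose arrays, placed by the mean log2 ratio of 0.05% over 2% glucose in the wild type (x axis, 2 arrays) and in snf1 (y axis, 2 arrays), coloured by the call of the difference, with the diagonal drawn and some of the largest differences named. MPC3 and JEN1 lie near 0 in snf1 with means of -0.30 and -0.03, against 4.54 and 4.56 in the wild type.

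Single genes of other carbon sources were among the largest differences towards lower values in snf1, while their lists were split. Ethanol, acetate and lactate use had 6 of 16 genes lower and 5 higher, or 4 and 3 with the arrays scaled. Invertase, maltose and galactose use had 1 of 4 in each direction. Gluconeogenesis and the glyoxylate cycle had 4 of 9 lower and 2 higher, or 0 and 1 scaled. Of all genes, 13.0% were lower and 27.6% higher, or 2.66% and 11.2% scaled. MPC3 had -0.21 and -0.39 in snf1 against 4.36 and 4.72 in the wild type, a difference of -4.84 ± 0.26 (SE, adjusted p = 1.90e-06). JEN1 had -0.07 and -0.001 in snf1 against 4.53 and 4.59 in the wild type (-4.60 ± 0.42, adjusted p = 2.45e-05). PUT1 had 0.41 and 0.43 in snf1 and 3.97 and 4.35 in the wild type, and SUC2 had 1.17 and 0.67 in snf1 and 4.03 and 3.98 in the wild type.

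The 4 high-affinity transporters with values on all 4 low glucose arrays were called lower in snf1. HXT2 had -0.11 and -0.35 in snf1 against 2.31 and 2.35 in the wild type (-2.56 ± 0.74, adjusted p = 0.0164), and HXT7 0.73 and 1.01 in snf1 against 3.29 and 3.59 in the wild type (-2.57 ± 0.22, adjusted p = 2.51e-05). HXT6 had 2.37 and 1.92 in snf1 and 3.19 and 3.35 in the wild type, and HXT4 0.88 and 0.79 in snf1 and 1.29 and 2.10 in the wild type. The call of HXT7 held with the arrays scaled (-1.26, adjusted p = 0.0119), while HXT2 had -1.72 (adjusted p = 0.168), HXT4 -0.21 (adjusted p = 0.584) and HXT6 0.11 (adjusted p = 0.787). The call of HXT2 was also lost when any 1 of the 4 low glucose arrays was left out, with differences from -2.68 to -2.43. Without wild type array 2 those of HXT4 (-0.52, adjusted p = 0.246) and HXT6 (-1.03, adjusted p = 0.0514) were lost, and without snf1 array 2 as well (-0.64, adjusted p = 0.172, and -0.86, adjusted p = 0.0628). With each dye swap averaged, HXT2, HXT4 and HXT6 lost their calls and HXT7 kept its own. In a fit to the 4 low glucose arrays alone, all 4 transporters kept their calls. That fit gave each of them the same SE of 0.22, whatever its own spread, so it is a weak check on a single gene. HXT1, in contrast, had -1.74 and -1.96 in snf1 and -2.05 and -1.35 in the wild type, with a difference of -0.15 ± 0.26 that was not called (adjusted p = 0.665).

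HXK1 had 4.47 and 4.78 in snf1 and 4.66 and 4.67 in the wild type, a difference of -0.03 ± 0.24 (SE, adjusted p = 0.923). GLK1 had 3.12 and 2.85 in snf1 against 2.71 and 2.05 in the wild type and was not called either (adjusted p = 0.138). With the arrays scaled, however, 3 of the 4 hexose kinases were called higher in snf1. Of the trehalose genes 4 of 8 were called higher in snf1, or 6 with the arrays scaled, and their median ratio was 2.83 there against 1.61 over the 9 genes of the wild type. TPS1 had 2.90 and 2.76 in snf1 and 2.46 and 2.43 in the wild type (adjusted p of the difference = 0.145). RGI1 had 3.52 and 3.86 in snf1 against 6.53 and 7.47 in the wild type (-3.31 ± 0.84, adjusted p = 0.00831). That call was lost with the arrays scaled (-0.59, adjusted p = 0.679), without wild type array 2 (-2.92) and without snf1 array 1 (-3.28). The call of RGI1 was also lost with each dye swap averaged. It was kept in a fit to the 4 low glucose arrays alone, but that fit did not use the gene's own spread. Genes of the general stress list were lower in snf1 in 11 of 25 cases and higher in 2, but 1 and 4 with the arrays scaled. Their direction therefore depends on the scale.

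Respiratory genes were lower in snf1 in 8 of 13 cases, or in 3 with 1 higher when the arrays were scaled, with CYC7 at 1.01 and 1.10 in snf1 against 3.68 and 4.34 in the wild type, and mitochondrial ribosomal proteins in 21 of 38, or 10 of 38 with the length correction, where 12.5% of all genes were called lower, and 4 with the arrays scaled, where 2.66% were. Of 7 repressor genes 4 were called lower and 2 higher in snf1, or 1 each with the arrays scaled. MIG1 had 0.38 and 0.53 in snf1 against 1.19 and 1.35 in the wild type (-0.82 ± 0.19, adjusted p = 0.00577), and NRG1 0.59 and 0.76 in snf1 against 1.99 and 1.85 in the wild type (-1.25 ± 0.38, adjusted p = 0.0201). Both calls were lost with the arrays scaled, with -0.32 for MIG1 (adjusted p = 0.346) and -0.51 for NRG1 (adjusted p = 0.41). That of MIG1 was also lost without wild type array 2 (-0.70, adjusted p = 0.0661) and without snf1 array 1 (-0.70, adjusted p = 0.0608). That of NRG1 was lost when any 1 of the 4 arrays was left out (from -1.385 to -1.105) and with the length correction (-0.87, adjusted p = 0.105). With each dye swap averaged, MIG1 and NRG1 lost their calls. Both kept them in a fit to the 4 low glucose arrays alone, but that fit did not use each gene's own spread.

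Many genes of translation and biosynthesis were called higher in snf1, with counts that depend on the scale of the arrays. Transfer RNA synthetases were higher in snf1 in 19 of 20 cases, in 18 with the length correction, where 21.0% of all genes were called higher, and in 10 with the arrays scaled. CDC60 had -0.88 and -0.39 in snf1 against -3.18 and -2.89 in the wild type (2.40 ± 0.24, adjusted p = 4.12e-05). Amino acid synthesis had 36 of 61 genes higher in snf1, the same count with the length correction and 10 with the arrays scaled, where 11.2% of all genes were called higher. Translation factors had 20 of 36 higher in snf1, or 4 scaled, purine synthesis 15 of 22, or 2 scaled, and ergosterol synthesis 16 of 23, or 3 scaled. HOM3, of threonine and methionine synthesis, had 1.58 and 1.60 in snf1 against -1.43 and -1.59 in the wild type (3.10 ± 0.19, adjusted p = 3.06e-05). DED1 had 0.60 and 0.37 in snf1 against -3.11 and -3.05 in the wild type (3.56 ± 0.28), and PMA1 0.11 and -0.01 in snf1 against -3.21 and -3.13 in the wild type (3.22 ± 0.39).

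Ribosomal protein genes gave few calls. Of 45 genes of the 40S subunit 2 were lower in snf1, and of 70 genes of the 60S subunit 3 were higher and 7 lower, with medians of -0.84 and -0.73 in snf1 against -0.80 and -0.56 over the genes tested in the wild type. With the length correction the split turned, to 3 higher and 1 lower for 40S and 13 higher and 1 lower for 60S. Assembly genes were called higher in snf1 in 26 of 51 cases for the small subunit and 24 of 62 for the large one. With the arrays scaled, 1 gene of the first list was called, lower in snf1, and 3 of the second were higher. RRP12 had -2.66 and -2.50 in snf1 against -4.18 and -4.57 in the wild type.

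**Figure D5:**
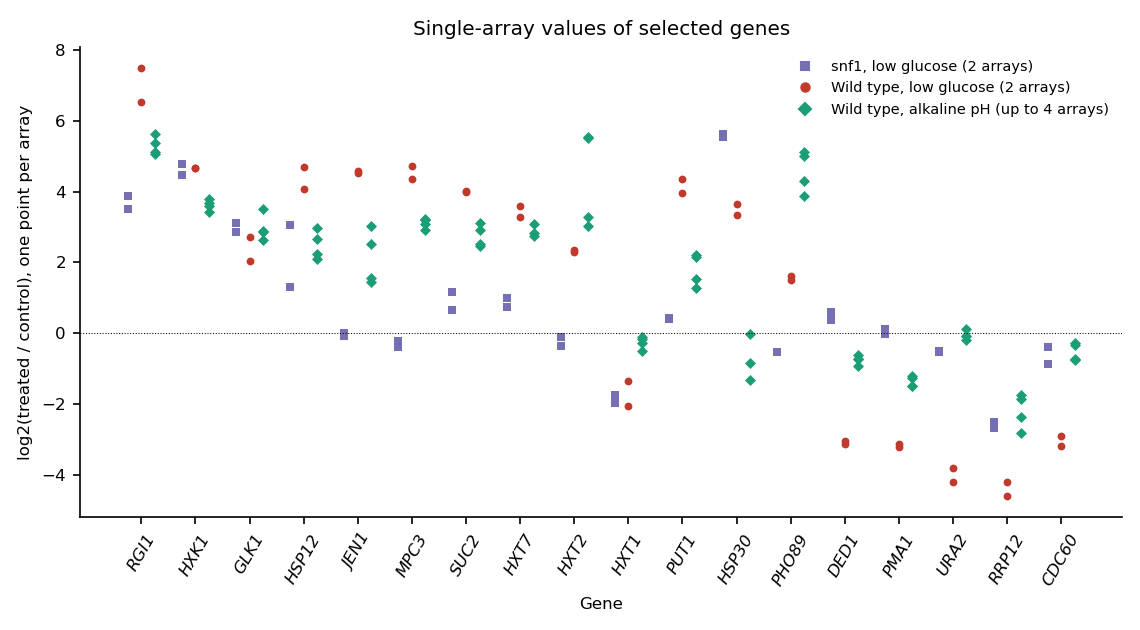
Each point is the log2 ratio of treated over control on a single array (y axis) for 18 genes (x axis), with the groups snf1 at low glucose, wild type at low glucose and wild type at alkaline pH in colour. JEN1 lies at -0.07 and -0.001 in snf1, 4.53 and 4.59 in the wild type at low glucose and between 1.45 and 3.04 at alkaline pH, while HXK1 lies above 3.4 in all 3 groups.

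The low glucose response of the wild type was also set against that of the wild type at alkaline pH, over the 4825 genes with both low glucose values and at least 3 alkaline ones. Strain, handling and time differ too and cannot be told apart from the treatment. Called were 2178 genes (45.1%), 1171 higher (24.3%) and 1007 lower (20.9%) at low glucose. The split turned with the processing: it was 864 higher and 1143 lower with each array centred on its median, 219 (4.54%) and 377 (7.81%) with the arrays scaled (12.4% called), and 553 (12.1%) and 716 (15.7%) with the length correction (27.8% called). Without low glucose array 1 or 2 the count was 1104 or 985.

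HSP30 differed most among genes higher at low glucose, with 3.33 and 3.64 against -0.03, -0.85 and -1.32 on the 3 alkaline arrays that gave a value (4.28 ± 0.86, adjusted p = 0.00309). CTR1 had 2.20 and 2.45 at low glucose against -0.40, -0.09, -0.19 and -0.25 at alkaline pH (2.56 ± 0.18, adjusted p = 4.18e-06). IRC7 and ZEO1 had 1.15 and 0.95 and 1.19 and 1.09 at low glucose and were below 0 on all 4 alkaline arrays. JEN1 had 4.53 and 4.59 at low glucose against 1.45, 1.57, 2.52 and 3.04 at alkaline pH (2.42 ± 0.36). With the arrays scaled, HSP30, JEN1, PUT1, ISF1 and SRL3 lost their calls of the 20 genes named for this difference.

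PHO89, the phosphate carrier driven by sodium, whose call at low glucose was lost without array 2 (1.46, adjusted p = 0.0823), had 1.52 and 1.62 at low glucose against 3.86, 4.30, 5.01 and 5.12 at alkaline pH (-3.002 ± 0.48, adjusted p = 8.83e-04). HXT2 had 2.31 and 2.35 at low glucose against 3.03, 3.28, 5.50 and 5.53 at alkaline pH (-2.01 ± 0.64, adjusted p = 0.0258). GSC2, the inducible glucan synthase, had -1.89 and -2.08 at low glucose and 1.36, 0.67, 2.94 and 2.61 at alkaline pH (-3.88 ± 0.54, adjusted p = 5.25e-04). Its fall at low glucose itself was not called with the length correction (-0.17) or without array 2 (-1.77, adjusted p = 0.0656). GCV2, of glycine breakdown, had -1.06 and -1.72 at low glucose and 1.97, 1.59, 2.06 and 2.14 at alkaline pH. URA2, FAS1, GCN1, ACC1, BLM10 and TAO3, all long genes, were lower at low glucose too, with differences between -3.94 and -3.11, or between -2.08 and -1.18 with the length correction.

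By function, the respiratory chain was higher at low glucose than at alkaline pH in 16 of 17 cases and lower in 1, higher in 12 with the length correction and in 5 with the arrays scaled. Mitochondrial ribosomal proteins were higher in 41 of 63 cases but in 4 with the length correction. Transfer RNA synthetases were lower at low glucose in 17 of 18 cases with and without that correction, and in 8 with the arrays scaled. Purine synthesis was lower in 18 of 22 cases, in 16 with the correction and in 3 with the arrays scaled, with medians of -1.18 at low glucose and 0.00 at alkaline pH. Some preset genes did not differ beyond the threshold. HXT7 had 3.29 and 3.59 at low glucose and 2.83, 2.74 and 3.08 on 3 alkaline arrays (0.52 ± 0.20, adjusted p = 0.0551). GLK1 had 2.71 and 2.05 at low glucose and 2.86, 3.51, 2.62 and 2.88 at alkaline pH (adjusted p = 0.0902). TPS1 had 2.46 and 2.43 at low glucose and 2.33, 2.84, 2.35 and 2.52 at alkaline pH (adjusted p = 0.773). Other members of their lists were called. Hexose kinases had 2 of 4 higher at low glucose, trehalose genes 1 of 9 higher and 3 lower, and high-affinity transporters 1 of 8 in each direction. With the arrays scaled, 1, 4 and 3 genes of these lists were lower and 0 higher.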

How the data were processed

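The series holds 12 dual-channel yeast arrays, and 4 of its groups were taken from the titles: snf1 and wild type at low glucose (2 arrays each) and snf1 and wild type at alkaline pH (4 each). The deposited values were read as log2 ratios of treated over control. That base was settled from the wild type low glucose arrays, where 99 of 99 low values matched a rounded linear ratio. Over all 12 arrays 105 of 133 did, against 16 with natural logs, and the same base was assumed for the other arrays. How the authors normalized the arrays is not stated in any label or header. Per the labels' protocols, 8 µg of total RNA was labelled indirectly from oligo(dT), and the authors left out spots under 120 µm or under 100 fluorescence units. Intensities were not used here, so depth is unknown, and the number of arrays limits the precision.

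Of 6212 rows, 355 had no value and 5662 matched a locus tag of RefSeq's R64 table, which gave names and lengths. All 12 arrays entered a linear model in limma (version 3.58.1, under R 4.3.3), with 4 group means, a dye term for each gene and empirical Bayes moderation. A gene was called at a Benjamini-Hochberg adjusted p under 0.05. Tables and plots used Python 3.11.15 and matplotlib 3.10.9. The length trend was a lowess curve with span 0.3, removed from each array. Both differences use the same wild type low glucose arrays. The fits were tested on simulated data.

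Named genes were the 20 largest called in each direction, up to 4 called per direction in each of 62 lists, preset genes, and up to 10 per direction for each difference. SNF1 and ADH2, both preset, could not be tested. A few genes that the rule names are not reported here. The members, lists and isozyme pairs were chosen with earlier results of these data known. Alternatives were the dye term, the arrays fitted, length, scaling, centring, genes measured on all arrays, robust moderation, averaged dye swaps, a replicate block and leaving out each array, where the value of the array left is adjusted by the dye term. Replicate numbers were checked for pairing by the correlation of deviations from group means: same-numbered arrays gave 0.287 at low glucose, where the number also marks the dye, and between -0.386 and 0.070 at alkaline pH, so the numbers were not taken to pair arrays.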

Additional observations from a re-analysis of the deposited data

Results flagged for a closer look

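A difference between the genotypes, snf1 minus wild type at low glucose, was found by the test of the difference itself for the 10 named genes with the largest differences in each direction and for preset genes. All values are on the log2 scale with limma's adjusted p under 0.05. They share the wild type arrays, and 40.6% of all 3651 genes were called.

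Higher in snf1 were PRP6 by 3.79, DED1 by 3.56, URA2 by 3.49, FAS1 by 3.37, GCN1 by 3.27, PMA1 by 3.22, FKS1 by 3.14, HOM3 by 3.10, ACC1 by 3.08 and FAP1 by 2.87. PRP6, a splicing factor gene, had 3.37 and 3.03 in snf1 against -0.45 and -0.72 in the wild type, where it was not called.

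Lower in snf1 were MPC3 (-4.84), JEN1 (-4.60), PUT1 (-3.74), RGI1 (-3.31), SUC2 (-3.08), CYC7 (-2.96), NUP170 (-2.89), ICY1 (-2.89), TMA10 (-2.74) and FMP33 (-2.70). Of the preset genes, HXT7 (-2.57), HXT2 (-2.56), HSP12 (-2.19), NRG1 (-1.25), HXT6 (-1.13), HXT4 (-0.86), MIG2 (-0.84) and MIG1 (-0.82) were lower in snf1 too. With the arrays scaled to a common spread, RGI1 and TMA10 lost their calls among the 20 largest, and so did HXT2, HXT4, HXT6, HSP12, MIG1 and NRG1 among the preset genes, with HXT6 at 0.11, while HXT7, JEN1, SUC2 and MIG2 kept theirs. HSP12 also lost its call without wild type array 2 (-1.66) and without snf1 array 2 (-1.29). With each dye swap averaged, which leaves a single value per low glucose group, PRP6 and RGI1 lost their calls among the 20 largest. So did HXT2, HXT4, HXT6, HSP12, MIG1, MIG2 and NRG1, while HXT7, JEN1 and SUC2 kept theirs. In a fit to the 4 low glucose arrays alone, all these preset genes kept their calls. That fit gave each of them the same SE of 0.22, whatever its own spread, so it is a weak check on a single gene.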

How the results depend on the processing

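The wild type count of 3405 called genes was 2154 with the arrays scaled to a common spread and 2027 of the 2980 genes with a value on all 12 arrays, a setting that tests fewer genes, and lay between 2376 and 2516 when an array was left out. The snf1 difference (1481) gave 506 scaled, 610 with dye swaps averaged and 962 to 1255 with an array left out. The alkaline difference (2178) gave 1269 with the length trend removed, 596 scaled, 1413 for genes on all 12 arrays, 673 averaged and 985 to 2238 with an array left out. With a replicate block, whose consensus correlation was -0.121, the counts were 3416, 1399 and 2176, and 2952, 1073 and 1268 with block and length correction together. The other alternatives stayed within 1.5 times these counts. The cause of these changes was not tested. Named genes that reversed with the length correction, with and without the block, had values of -0.12 (GIM5), 0.0439 (SIP1), 0.24 (HAP1), 0.32 (OAF1), 0.42 (IRA2), 0.44 (FOX2), 0.0660 (PEX6), 0.14 (KGD1), 0.0155 (MSN2), 0.27 (ATG11), 1.23 (ATG2), 0.0836 (CCH1), 1.23 (CAT8) and 0.20 (PRP6). CAT8 was 0.0643 without array 1 and -0.52 without array 2. Of 407 named genes, 73 lost the call scaled, 54 averaged, 35 with the length correction, 52 without array 1 and 67 without array 2.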
